A study of Homo sapiens with 6 samples.

Results

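Cassette exons that share their outer ends with another cassette exon were examined in MDA231-BrM2a cells, a brain-metastatic derivative of the human breast cancer line MDA-MB-231. The members were the rows of a splicing table, exact repeats dropped, whose gene, chromosome, start and end occurred in 2 or more rows. This choice used no measured difference. It took 8524 of 24648 rows (34.6%), in 3753 regions of 2673 of the 7980 genes in the table. Of these regions, 3015 held 2 rows, 553 held 3 and 185 held 4 or more, up to 9. The 3 control samples were non-clonal cells carrying the empty retroviral vector pRetroX-Tight-Pur. The 3 RBM47 samples came from 1 single-cell clone (wt#10) carrying the same vector with Flag-tagged wild-type RBM47 under doxycycline control, and both kinds of cells received 10 ng/ml doxycycline for 3 days. Since all RBM47 samples are 1 clone and the control is not clonal, the RBM47 transgene and the clone cannot be told apart. The table holds no row of RBM47 itself, so the transgene could not be checked here.

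Each row holds an inclusion rate per sample, from 0 where the exon was left out to 1 where it was always spliced in. How the rate was computed from reads is not given in the sources used here. Beside the rates stand the including and the skipping reads, summed over the 3 samples of a group, so that the depth per sample is unknown. A rate from summed reads below is the including reads over themselves plus 2 times the skipping reads, since inclusion makes 2 junctions. It lay within the 3 sample rates of its group in 6544 of 8523 member rows in control and 6543 in RBM47 cells, above all 3 in 1979 and 1980, and below them in 0. The deposited rates therefore do not follow this formula in every row. Among members called by limma it lay above all 3 control rates in 16 of 36 and above all 3 RBM47 rates in 9. Member rows had a median of 421 reads in control and 366 in RBM47 cells, against 332 and 263 in the other rows. RBM47 replicate 2 stood apart. Among member rows with a mean rate of 0.1 to 0.9, 11.8% of its rates were exactly 0 or 1. Each of the other samples had 4.78% to 6.03% in these rows. The labels do not say whether the replicates were separate cultures, so p-values measure only the spread between these samples. In some member rows the sample rates stood in another row than their averages and were re-matched through those averages, 430 rows by both and 79 by the RBM47 average alone. A difference below is always the mean rate in RBM47 cells minus that in control cells, and the exons of a region are lettered from A in falling order of including reads.

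A cassette exon lies between an upstream and a downstream exon and is either spliced in or left out. Exons between the same outer ends can be mutually exclusive, so that a transcript takes one or the other. They can also be consecutive exons of 1 transcript, or forms of a single exon that differ in the acceptor site at its start or the donor site at its end. PKM, the glycolytic enzyme pyruvate kinase, is the textbook case of the first kind, and KHK, ketohexokinase of fructose breakdown, is a further one. RBM47 is an RNA-binding protein with RNA recognition motifs.

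The sequences below show these 3 kinds in the genes that the results turn on. They were read from the GRCh37 genome at exons of the GENCODE annotation, in the direction of the gene, with the exon in capitals and 10 intron bases in lower case on either side. The table does not say which annotated exon a row is, so no row letter can be given to a sequence. The PKM exons (chr15:72495363-72495529 and chr15:72494795-72494961, minus strand) are each 167 bases long and are never joined in the annotation.
PKM, first in the gene: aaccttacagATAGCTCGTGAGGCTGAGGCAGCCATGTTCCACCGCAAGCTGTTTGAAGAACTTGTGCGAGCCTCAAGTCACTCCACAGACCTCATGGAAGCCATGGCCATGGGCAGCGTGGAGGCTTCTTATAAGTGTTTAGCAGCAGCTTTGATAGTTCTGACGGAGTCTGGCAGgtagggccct
PKM, next in the gene: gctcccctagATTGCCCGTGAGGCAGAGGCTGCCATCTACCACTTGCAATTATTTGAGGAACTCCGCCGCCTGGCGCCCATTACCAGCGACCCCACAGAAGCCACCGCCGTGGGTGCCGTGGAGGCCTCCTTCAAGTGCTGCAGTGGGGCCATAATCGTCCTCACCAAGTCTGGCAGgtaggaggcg
The KHK exons (chr2:27317345-27317479 and chr2:27317668-27317802, plus strand) are each 135 bases long, and at least 1 annotated transcript joins them. They are shown because the rows of this region moved in unlike directions.
KHK, first in the gene: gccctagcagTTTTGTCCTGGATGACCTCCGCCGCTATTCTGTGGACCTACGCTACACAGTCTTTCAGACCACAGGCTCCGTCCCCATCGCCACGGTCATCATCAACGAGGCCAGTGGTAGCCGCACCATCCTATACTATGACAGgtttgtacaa
KHK, next in the gene: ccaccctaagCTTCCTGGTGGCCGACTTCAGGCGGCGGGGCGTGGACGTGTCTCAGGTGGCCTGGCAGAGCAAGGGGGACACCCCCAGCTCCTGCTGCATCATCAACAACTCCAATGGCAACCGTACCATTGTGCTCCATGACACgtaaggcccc
The MARK3 exons (chr14:103964839-103964865 and chr14:103966493-103966537, plus strand) are 27 and 45 bases long, and at least 1 annotated transcript joins them. They are shown because both rows fell.
MARK3, first in the gene: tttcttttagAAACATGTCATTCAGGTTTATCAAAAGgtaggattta
MARK3, next in the gene: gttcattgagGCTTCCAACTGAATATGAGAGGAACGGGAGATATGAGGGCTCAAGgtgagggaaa
The ADAM15 forms (chr1:155033891-155033965 and chr1:155033894-155033965, plus strand) are 75 and 72 bases long and differ only in an acceptor 3 bases further on. They are shown because both rows rose by nearly the same amount.
ADAM15, longer form: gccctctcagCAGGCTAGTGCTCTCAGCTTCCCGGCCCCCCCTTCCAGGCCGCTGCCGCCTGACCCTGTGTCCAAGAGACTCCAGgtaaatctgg
ADAM15, shorter form: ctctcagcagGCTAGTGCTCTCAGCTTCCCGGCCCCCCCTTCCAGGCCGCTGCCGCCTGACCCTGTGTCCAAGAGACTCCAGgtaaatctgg
NFYA has a single annotated exon of 87 bases in its region (chr6:41048550-41048636, plus strand), yet 2 rows in the table. It is shown because a second AG stands 3 bases after its acceptor.
NFYA: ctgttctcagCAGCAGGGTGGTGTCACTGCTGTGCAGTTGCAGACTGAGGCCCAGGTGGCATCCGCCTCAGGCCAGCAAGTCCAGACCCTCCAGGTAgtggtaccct
The SEC31A exon of 39 bases (chr4:83752090-83752128, minus strand) is the single annotated exon of a region whose 2 rows both rose.
SEC31A: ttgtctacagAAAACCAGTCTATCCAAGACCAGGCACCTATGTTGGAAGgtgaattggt
All of these exons overlap coding sequence.

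The annotation put only few of the regions in the class of separate exons that no transcript joins. The word competing thus describes the shared outer ends and not a proven choice between exons. Outer ends were matched for 2751 of the 3753 regions (73.3%). In 114 regions (3.04%) at least 1 pair of the exons between them lay apart and no transcript joined any of these exons. In 103 of these 114 an annotated transcript skipped all exons between the ends. In 711 (18.9%) at least 1 transcript joined exons one after the other, in 571 (15.2%) the exons overlapped, in 1068 (28.5%) a single exon was annotated and in 287 (7.65%) none. Of the 16124 regions with 1 row, 0.806% had separate, 12% joined and 1.77% overlapping exons, and 48.4% a single exon. Among the 501 member regions with 2 overlapping exons, 341 differed in the acceptor, 157 in the donor and 3 in both. The length difference was 3 bases in 44 of them, 43 of these at the acceptor. Where a single exon was annotated, an AG stood 3 bases before or after its AG acceptor in 100 of 1066 member regions (9.38%) and in 401 of 7800 other regions (5.14%). The search was for these letters on the gene's strand, and a match is no proof of a used site. Median exon length was 116 bases for single, 107 for joined, 118 for overlapping and 113 for separate exons of member regions. Coding sequence overlapped 89.3%, 87.7%, 94.5% and 69.1% of them, in that order.

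**Figure D1:**
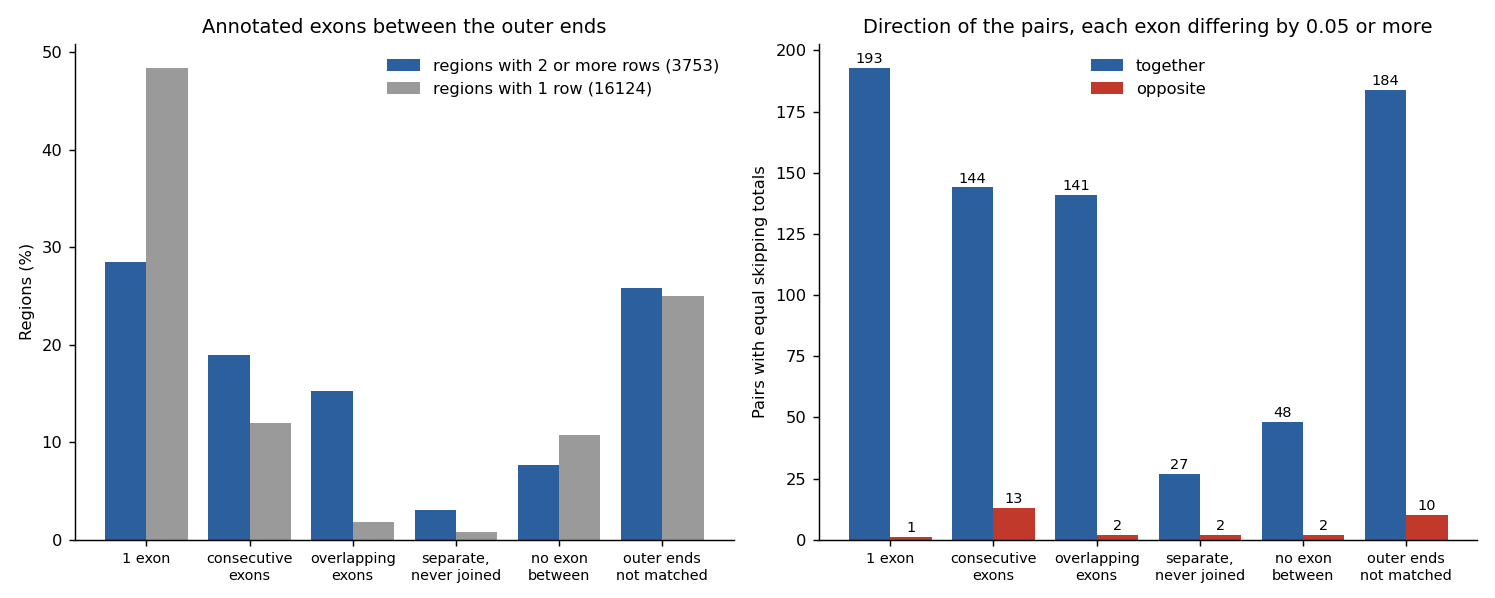
The left panel plots the percent of regions in each annotation class for the 3753 regions with 2 or more rows (blue) and the 16124 regions with 1 row (grey). The right panel counts pairs of exons with equal skipping totals whose rates were both at least 0.05 apart between the groups, in the same direction (blue) or in unlike directions (red): the overlapping class reaches 15.2% of member regions against 1.77%, and in every class the pairs moving together outnumber those moving in opposite directions.

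Few member exons were called different between RBM47 and control cells, and the calls were about as frequent as elsewhere in the table. An exon without a call may still differ, since a call needed a difference of at least 0.2. By the criteria of the study (an unadjusted p of at most 0.05 by two-sided Fisher's exact test on the summed reads, a difference of at least 0.2 and at least 10 reads), 53 of 8523 member exons with rates were higher and 62 lower in RBM47 cells. Together these 115 are 1.35% of the members, against 1.41% of the whole table, with 0.617% higher and 0.796% lower. They lay in 82 regions of 79 genes. By limma, which sets the difference against the spread between samples, 22 members rose and 14 fell out of 2469 tested (a call needed an adjusted p under 0.05 after Benjamini-Hochberg and a rate difference of 0.2 or more). That is 1.46%, against 1.54% of the 5989 exons tested in the whole table, with 0.751% higher and 0.785% lower. Rates of all 3 RBM47 samples lay on one side of all control rates in 950 members (11.1%), against 9.96% of the whole table. The median difference of the members was 0 and their median absolute difference was 0.0135, against 0.0103 in the other rows. Of the 115 called exons, 79 had rates re-matched by the RBM47 average alone and 27 stood as deposited. Calls on re-matched rates are not the calls of the study itself, although its criteria were applied. The read totals, which the matching did not use, gave the same direction for 115 of the 115, and a difference of at least 0.2 for 72. The calls rest on Fisher's exact test on these same totals, so this is no independent check of the re-matched rates. From summed reads the difference was 0.234 in place of 0.365 for ADAM15 exon A and 0.239 in place of 0.377 for exon B of chr1:153299862-153301074, and 0.334 in place of 0.521 for SEC31A exon B of chr4:83969176-83982657. Without RBM47 replicate 2, the study criteria called 45 members higher and 66 lower, and limma 10 and 11.

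Where both exons of a pair with the same outer ends and the same skipping reads differed by at least 0.05, most such pairs went the same way, but more pairs had 1 exon past the study criteria than both. Of 5617 such pairs, 774 (13.8%) had a difference of at least 0.05 in both exons. In 744 of these (96.1%) both exons went the same way, 343 up and 401 down, and in 30 (3.88%) they went in opposite directions. Both exons passed the study criteria in 37 pairs of 28 genes, 17 higher and 20 lower, and none of these 37 had unlike directions. In 91 pairs only 1 exon passed, and in 30 of these the other differed by less than 0.05. Since the exons of such a pair share their skipping reads, a like direction is partly built in, and the counts are a description. The 607 pairs with equal outer ends but unequal skipping reads do not share them in this way. Among these, 36 moved together and 36 in opposite directions. Across pairs, Pearson's r between the differences of the exons was 0.676 for equal and 0.0487 for unequal skipping reads, where the points share samples, regions and, in the first set, reads. In all 82 regions with a called exon, all called rows of the region went one way, and 29 of these regions held 2 or more called rows. By class, 1 pair moved in opposite directions and 193 together for single exons, 2 and 141 for overlapping, 13 and 144 for joined, and 2 and 27 for separate exons. Without RBM47 replicate 2, 766 pairs moved together and 33 in opposite directions.

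**Figure D2:**
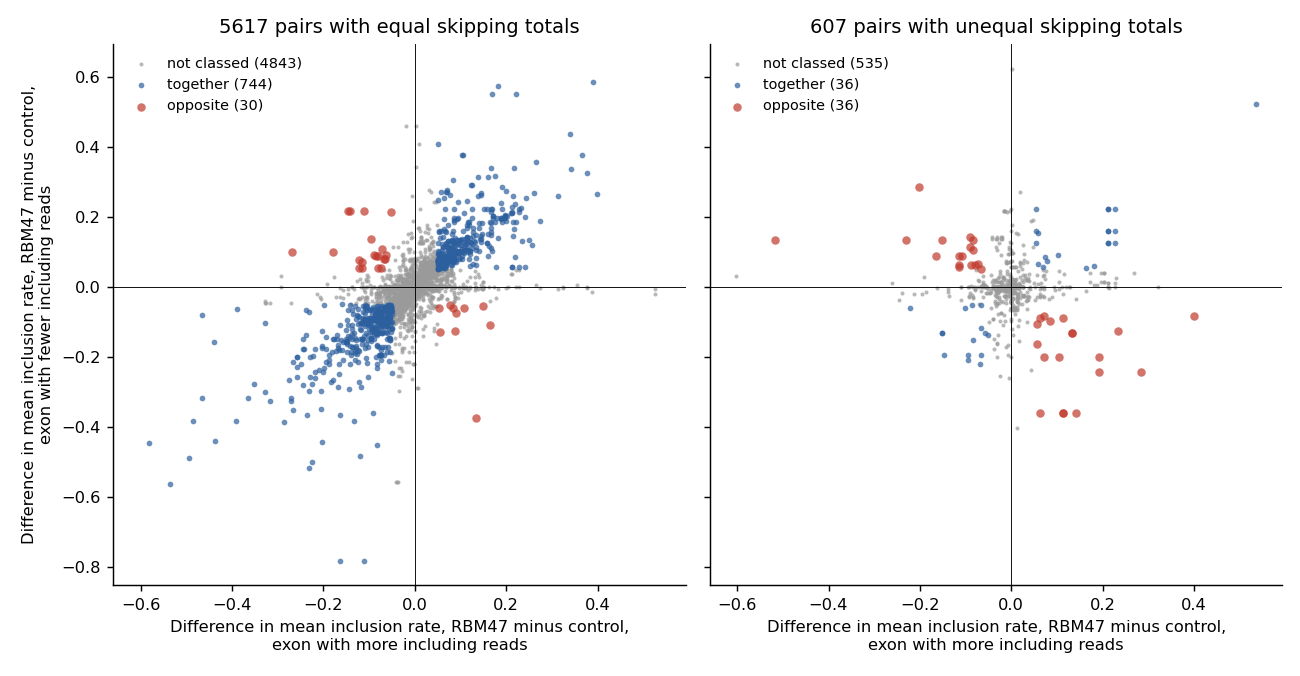
Each point is a pair of exons with equal outer ends, placed by the difference in mean inclusion rate, RBM47 minus control, of the exon with more (x) and with fewer (y) including reads. Pairs with equal skipping totals (left) lie along the rising diagonal, with 744 moving together (blue) and 30 in opposite directions (red), while pairs with unequal totals (right) spread over all quadrants, with 36 of either kind.

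In 9 groups with shared skipping reads, limma called 2 or more exons, 18 exons in all, and each group moved in 1 direction. Groups of 6 genes rose, namely SEC31A, ADAM15, ORC3, PBRM1, PRMT2 and SEPTIN6. Groups of MARK3, PLOD2 and NFYA fell. All 18 called exons had control and RBM47 rates that did not overlap, against 950 of all members (11.1%). The calls were made on these same rates, so this is no further support for them. All 18 also had rates re-matched by the RBM47 average alone. Their control rates thus come from the matched row and do not average to the printed control average. The same holds for all other member exons called by limma except VWA9 exon C. Coordinates of regions are those of the table, whose genome build is not stated for it.

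SEC31A, a subunit of the outer COPII coat on vesicles that leave the endoplasmic reticulum, rose most in its exon with the fewest reads. In the region chr4:83969176-83984685, exon C had control rates of 0.085, 0.0496 and 0.0571 and RBM47 rates of 0.588, 0.672 and 0.584. It was nearly always skipped in control cells and mostly included in RBM47 cells, a difference of 0.551 (SD 0.0187 and 0.0498, n = 3, limma adjusted p 0.000252). Exon B rose from 0.469 ± 0.0391 to 0.69 ± 0.0325 (SD, n = 3, limma adjusted p 0.0079). Exon A went from 0.579 ± 0.0421 to 0.747 ± 0.0211, which passed the limma threshold (adjusted p 0.0196) but not the required difference of 0.2. From summed reads the difference was 0.138 for exon A, 0.17 for B and 0.487 for C, so that B was then under 0.2. The skipping reads that these exons share numbered 327 in control and 142 in RBM47 cells. Including reads were 1724 and 1791 for exon A, 1394 and 1618 for B and 95 and 451 for C. Exons A and C thus went up together by unequal amounts. The gap between their differences was −0.382, and this was the only pair called among the 1277 tested by limma on the pair difference (adjusted p 0.026). That is 0.0783% of the pairs, and 112 had an unadjusted p under 0.05. With the replicate number as a block its adjusted p was 0.306, and no pair was called without control replicate 1, control replicate 3 or RBM47 replicate 3. Exon A held 94.8% of the including reads of this pair in control cells (95% Wilson interval 93.7% to 95.7%) and 79.9% in RBM47 cells (78.2% to 81.5%). A further region with the same start, chr4:83969176-83982657, holds the exon of 39 bases shown above and 2 rows with unequal skipping reads. Its exon A went from rates of 0.0994, 0.0885 and 0.0602 to 0.588, 0.562 and 0.708 (difference 0.537, limma adjusted p 0.000331). Its exon B went from 0.488, 0.273 and 0.302 to 0.928, 0.838 and 0.86 (difference 0.521, limma adjusted p 0.00421). All 6 RBM47 rates lay above every control rate of the same exon. The other 3 SEC31A regions had no called exon, with differences between −0.0841 and 0.00465.

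ADAM15, a membrane-anchored metalloprotease and disintegrin, rose in both forms of the exon shown above. In chr1:153299862-153301074 exon A had rates of 0.267, 0.333 and 0.37 in control and 0.667, 0.697 and 0.702 in RBM47 cells (limma adjusted p 0.00382). Exon B had 0.154, 0.346 and 0.352 and then 0.638, 0.661 and 0.684 (limma adjusted p 0.0196). Their differences of 0.365 and 0.377 were nearly equal, and the share of exon A among the including reads was 51.8% in both groups. The forms shown above share their donor, so reads of that junction may count in both rows, which was not tested. The including reads were 176 in control and 561 in RBM47 cells for A and 164 and 522 for B, while the skipping reads were 73 and 79. Neighbouring regions of ADAM15 that share 1 end with it, named after their values were seen, gave other values. In chr1:153299862-153301468 all 4 exons were higher, by 0.086 to 0.222, and exon C rose from 0.039 ± 0.0052 to 0.261 ± 0.0456 (SD, n = 3, limma adjusted p 0.00382). In chr1:153300517-153301468, where the annotated exons are separate, all 3 were lower. Exon C there had rates of 1, 1 and 0.6 in control and 0.0833, 0 and 0.167 in RBM47 cells (limma adjusted p 0.0187), but from summed reads its difference was −0.147 instead of −0.783, with 2 skipping reads in control and 32 in RBM47 cells.

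ORC3, a subunit of the origin recognition complex that marks starts of DNA replication, had 4 rows in chr6:88360789-88368317, of which 2 rose. Exon A had rates of 0.197, 0.152 and 0.175 in control and 0.503, 0.608 and 0.542 in RBM47 cells (limma adjusted p 0.00295). Exon B had 0.176, 0.102 and 0.211 and then 0.406, 0.582 and 0.474 (limma adjusted p 0.0235). The RBM47 samples all stood above the control samples. Exons C and D held 7 and 2 including reads in control and 0 in RBM47 cells, with rates at or near 0 in every sample. Skipping reads numbered 257 in control and 132 in RBM47 cells.

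PBRM1, a bromodomain subunit of a SWI/SNF chromatin remodeling complex, was included in nearly all reads of the RBM47 cells. Exon A of chr3:52559802-52571023 had rates of 0.463, 0.75 and 0.547 in control and 0.929, 1 and 1 in RBM47 cells (limma adjusted p 0.0355). Exon B had 0.265, 0.5 and 0.314 and then 0.833, 1 and 1 (limma adjusted p 0.0375). RBM47 cells had 1 skipping read in all against 40 in control cells, and its including reads were fewer as well, 80 against 142 for A and 42 against 64 for B. SEPTIN6, a filament-forming septin that the table lists under the date-like symbol 6-Sep (gene ID 23157), rose in both exons of chrX:118637832-118647498. Exon A went from 0.6, 0.536 and 0.547 to 0.891, 0.882 and 0.929 (limma adjusted p 0.0176), and exon B from 0.366, 0.381 and 0.358 to 0.778, 0.769 and 0.867 (limma adjusted p 0.0423). PRMT2, an arginine methyltransferase, had 6 rows in chr21:46880013-46881329. Exons A to D share their skipping reads and were higher by 0.172, 0.197, 0.203 and 0.203, with limma adjusted p-values from 0.0241 to 0.026, and C and D passed the required difference. Exons E and F, with 6 skipping reads in control and 4 in RBM47 cells, stayed at mean rates between 0.923 and 0.988.

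MARK3, a kinase that acts on microtubule-associated proteins, fell in both exons of chr14:103027866-103039370. Exon A had rates of 0.748, 0.76 and 0.719 in control and 0.299, 0.304 and 0.228 in RBM47 cells (difference −0.465, limma adjusted p 0.000252). Exon B had 0.547, 0.6 and 0.53 and then 0.243, 0.238 and 0.245 (difference −0.317, limma adjusted p 0.00145). Both exons went from mostly included to mostly skipped, with 158 skipping reads in control and 580 in RBM47 cells. Including reads of A were 952 and 455, while those of B were 498 and 446, so that the share of A fell from 65.7% (63.2% to 68.1%) to 50.5% (47.2% to 53.8%) (two-sided Fisher's exact test on pooled reads, p 4.37e-13). Between samples the gap of −0.148 did not pass limma over all pairs (adjusted p 0.273), and the exact permutation test gave 0.1, the smallest p that 3 against 3 samples allow.

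PLOD2, a lysyl hydroxylase of collagen, fell in both exons of chr3:147277258-147279733 by almost the same amount. Exon A had rates of 0.817, 0.828 and 0.796 in control and 0.339, 0.349 and 0.442 in RBM47 cells (difference −0.437, limma adjusted p 0.000687). Exon B had 0.709, 0.721 and 0.682 and then 0.208, 0.25 and 0.333 (difference −0.44, limma adjusted p 0.002). The skipping reads were nearly level at 102 and 111, while the including reads were 968 and 155 for A and 552 and 99 for B. NFYA, the subunit of the CCAAT-binding factor NF-Y whose isoforms differ in the exon shown above, fell in both rows of chr6:41154745-41159908. Row A had rates of 0.702, 0.524 and 0.71 in control and 0.145, 0.188 and 0.121 in RBM47 cells (limma adjusted p 0.0124). Row B had 0.663, 0.524 and 0.723 and then 0.153, 0.188 and 0.0962 (limma adjusted p 0.0142). The rows were nearly alike, with differences of −0.494 and −0.491 and 51.4% of the including reads in row A in both groups. Without 1 sample at a time, 13 of the 36 exons called by limma kept their call in each of the 6 settings. Of the exons described so far these were exon A of ADAM15, ORC3 and the shorter SEC31A region, exon B of that region, exon C of SEC31A, and both exons of MARK3 and PLOD2. Both NFYA rows lost the call in 4 settings, and ORC3 exon B, PBRM1 exon A, SEPTIN6 exon B in each of the 6. SEC31A exon B of the longer region lost it without control replicate 2 or RBM47 replicate 1, and ADAM15 exon C of chr1:153299862-153301468 without RBM47 replicate 2. ADAM15 exon B of chr1:153299862-153301074 and exon C of chr1:153300517-153301468, SEPTIN6 exon A, PBRM1 exon B and both called PRMT2 exons lost it in 5 settings.

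**Figure D3:**
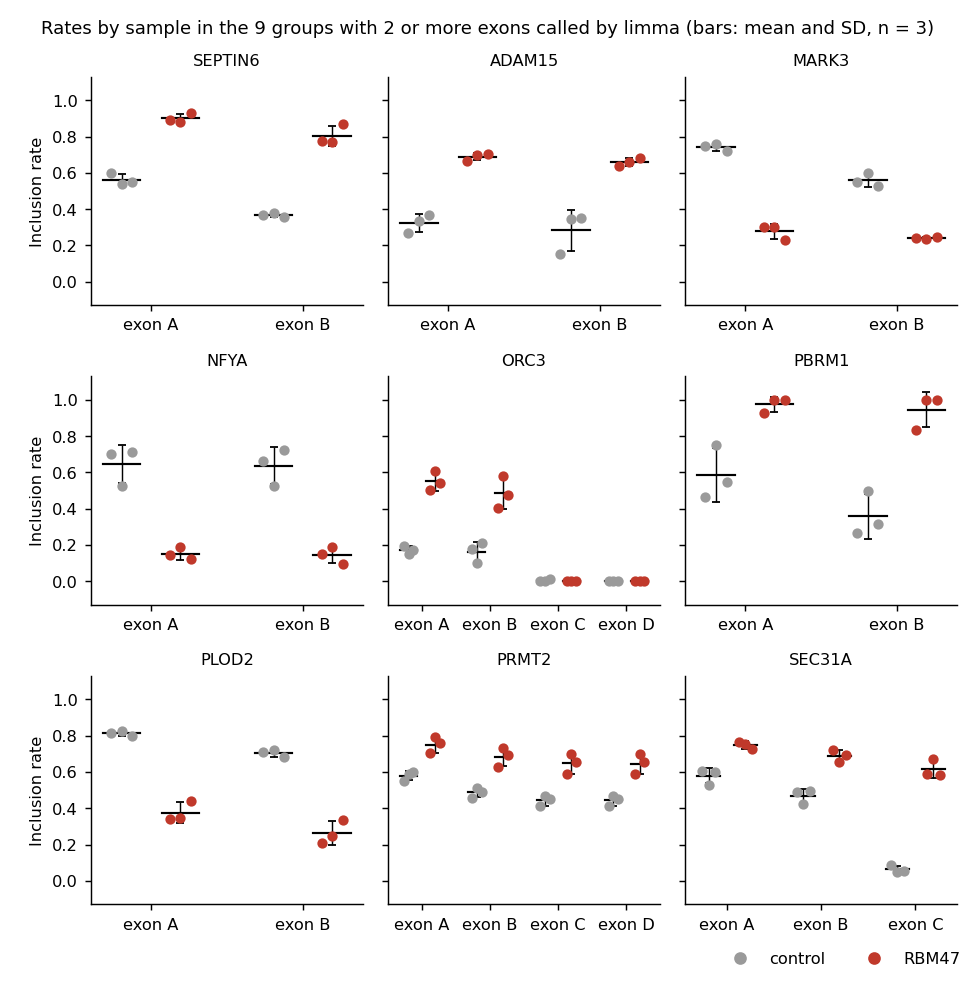
Points are the inclusion rates of single samples, control in grey and RBM47 in red, for the 9 groups in which limma called 2 or more exons, with black bars for mean and SD (n = 3). Within each panel the called exons go the same way, and in SEC31A exon C starts near 0.0639 and passes to 0.615 while A and B move from 0.579 to 0.747 and from 0.469 to 0.69.

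Further groups held exons past the study criteria, most of them without a limma call. In CLDND1, a claudin-domain membrane protein and 1 of 3 regions with 9 rows, exons A, B and C of chr3:99722666-99724435 were higher by 0.212, 0.227 and 0.212, and B alone passed limma (adjusted p 0.0424), a call lost in each of the 6 settings that leave out 1 sample. Without RBM47 replicate 1 these differences were 0.166, 0.193 and 0.172, under the required 0.2. The other 6 CLDND1 rows, and all 9 rows of DCAF8 and of SEPTIN7 (7-Sep in the table), held no called exon. Exons B and C of NRSN2 were higher by 0.262 and 0.267 (0.155 and 0.16 from summed reads), and exons A and B of PRRC2C by 0.212 and 0.211. PRRC2C exon C, with the same skipping reads, differed by 0.0375. In VWA9, a subunit of the Integrator complex, exon C had rates of 0.727, 0.692 and 0.857 in control and 1 in each RBM47 sample (limma adjusted p 0.00495). Exons A and B of the same group differed by 0.0418 and 0.0463, from control means of 0.958 and 0.954. From summed reads VWA9 exon C differed by 0.0436, with 6 skipping and 263 including reads in control cells. A pair under the table's label SNORA70 was lower by 0.244 and 0.281, with overlapping groups, but 11721 including against 6 skipping reads in control and 13999 against 23 in RBM47 cells gave a difference of −0.00225 from summed reads. MDM4, an inhibitor of p53, was lower in both exons of chr1:202767941-202774058, by 0.209 (p 0.0392) and 0.237 (p 0.0386) by Fisher's exact test. Its control rates in exon A were 0.586, 0.73 and 1 and its RBM47 rates 0.636, 0.417 and 0.636, so that the groups overlapped. The MDM4 differences shrank to −0.0948 and −0.101 without control replicate 3. Leaving out RBM47 replicate 2 gave −0.136 and −0.159. A second MDM4 region differed by −0.0654 and −0.1 and was not called.

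Pairs moving in opposite directions were rare, and few of them kept differences of at least 0.05 in both exons whichever sample was left out. The 30 pairs lay in 23 regions of 22 genes, with a median gap of 0.181 and a largest gap of 0.508. Limma tested 20 of them on the pair difference. None passed after adjustment (lowest adjusted p 0.273) and 9 had an unadjusted p under 0.05, against 8.77% of all pairs tested. Opposite pairs were chosen for unlike signs with at least 0.05 in each exon. A gap is thus built in, and the higher share is no finding about them. In 14 of the 30 the division of including reads differed at p of at most 0.05 by Fisher's exact test. Only 3 of the 30 stayed opposite by that measure when each sample in turn was left out, all 3 of them pairs of ANKRD10 with its exon D. With rates from summed reads none of these 3 was opposite, and 11 of the 30 pairs kept differences of at least 0.05 and 21 kept unlike signs. Of the 744 pairs moving together, 306 kept like signs and differences of at least 0.05 when each sample in turn was left out.

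In ANKRD10 (chr13:110343375-110356471) exons A, B and C were lower by 0.146, 0.11 and 0.141 and exon D was higher by 0.218. Exon D had control rates of 0.192, 0.135 and 0.037 and RBM47 rates of 0.135, 0.533 and 0.349, so that its groups overlapped. From summed reads the direction of ANKRD10 exon D turned, to a difference of −0.056, and exons A, B and C differed by −0.00998, −0.0797 and −0.101, so that all 4 were lower. The gaps of these pairs were then 0.046, −0.0237 and −0.0446, in place of −0.364, −0.328 and −0.358. COL13A1, a transmembrane collagen, gave differences of 0.0561 and −0.128, with 60.3% of the reads in exon A in control and 76.6% in RBM47 cells (Fisher's exact test, p 3.93e-08). In FAM49B, exon B was higher by 0.0876 and exons A and C lower by 0.0847 and 0.127. Exon A of FAM49B held 94% of the including reads of A and B in control and 75.9% in RBM47 cells (Fisher's exact test, p 1.5e-60). Other pairs of the 10 with the largest gaps and 30 or more reads were in DCTN1, RAD51D, TMEM175 and ZNF195. Their gaps were 0.184 to 0.231 in size, and in DCTN1, a subunit of the dynein activator dynactin, exon B had a rate above 0 only in RBM47 replicate 1, at 0.407. Its including reads were 13 in either group, and from summed reads its difference was −0.00878 in place of 0.136.

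KHK and RGS3, named after their values were seen, were the genes with an opposite pair in which an exon passed the study criteria. In KHK (chr2:27168703-27173172) exon A had rates of 0.922, 1 and 0.946 in control and 0.802, 0.788 and 0.74 in RBM47 cells. Exon B had 0.863, 1 and 0.897 and then 0.66, 0.689 and 0.608, a difference of −0.268 (Fisher's exact test, p 0.00117). Exon C went the other way against 2 of the 3 control samples, with 0.167, 1 and 0.2 in control and 0.6, 0.548 and 0.512 in RBM47 cells. Its including reads were 9 in control and 73 in RBM47 cells, and the skipping reads were 7 and 25. Of the including reads of B and C, exon B held 94% (89% to 96.8%) in control and 63.1% (56.2% to 69.5%) in RBM47 cells (Fisher's exact test, p 1.51e-12). For A and C, exon A held 96.7% and then 73.8% (Fisher's exact test, p 5.63e-15). The gaps of −0.277 (A and C) and −0.366 (B and C) grew to −0.528 and −0.598 without control replicate 2, the sample with all 3 rates at 1, and neither passed limma (adjusted p 0.781 and 0.641). In RGS3, a regulator of G-protein signaling, exon A of chr9:115367157-115385825 had 0.474, 0.6 and 0.231 in control and 0.714, 0.6 and 0.391 in RBM47 cells. Exon B had 0.545, 0.667 and 0.333 and then 0.2, 0 and 0.222 (Fisher's exact test, p 0.043, limma adjusted p 0.413). Its 10 including reads in RBM47 cells limit the precision. The gap of 0.508 had an exact permutation p of 0.1 and a limma adjusted p of 0.489.

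**Figure D4:**
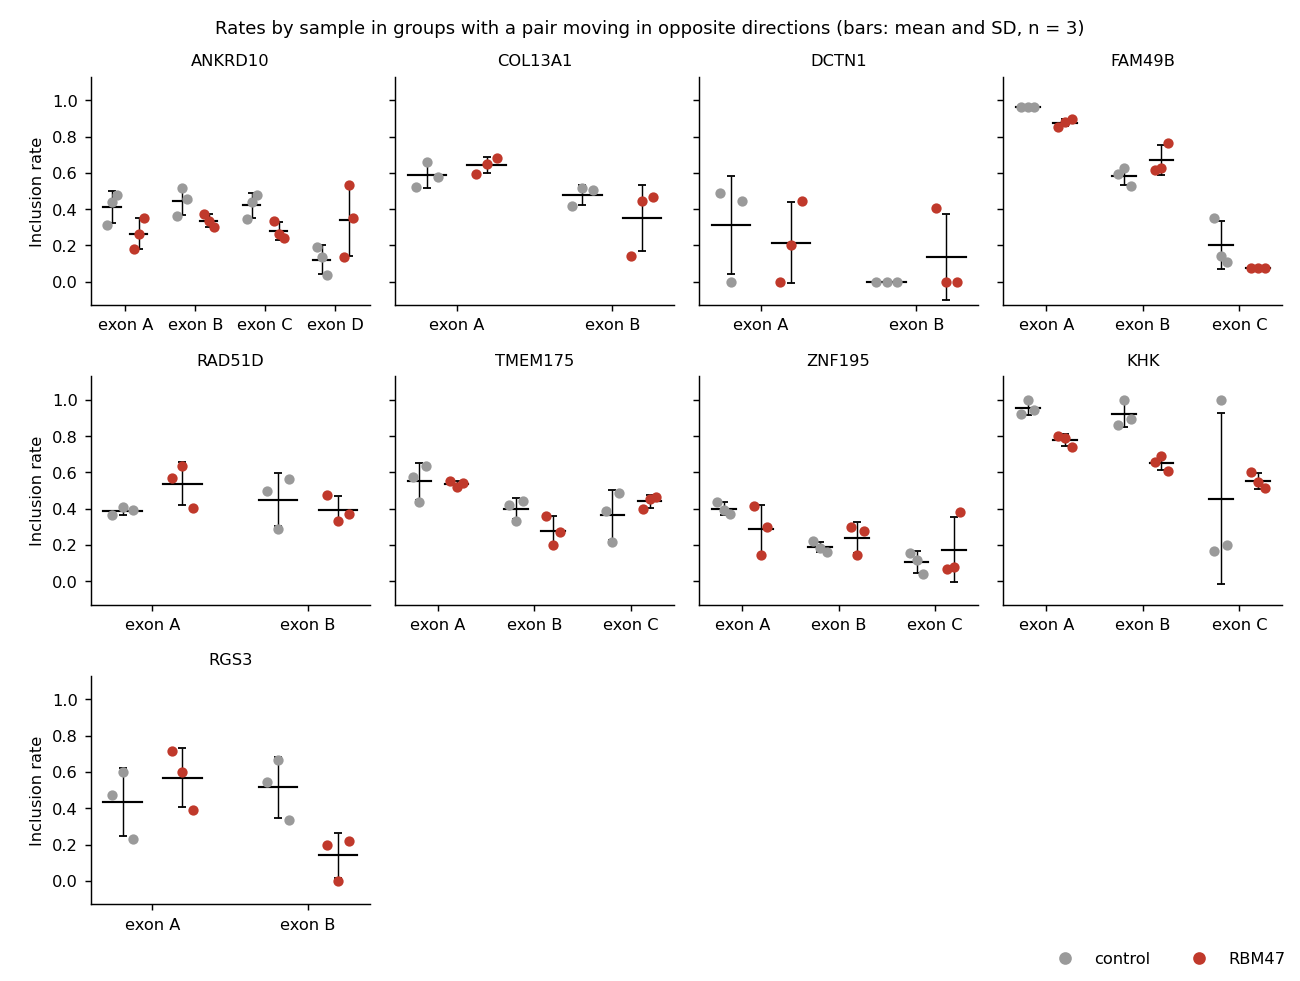
Inclusion rates of single samples, control in grey and RBM47 in red with black bars for mean and SD (n = 3), in the regions with opposite pairs in ANKRD10, COL13A1, DCTN1, FAM49B, RAD51D, TMEM175, ZNF195, KHK and RGS3. In KHK control replicate 2 stands at 1 in all 3 exons while exon C is at 0.167 and 0.2 in the other control samples.

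In the PKM, FYN, P4HA1, H2AFY and DGKA regions with separate, rarely skipped exons, inclusion rates hardly differed between the groups. The division of including reads did. Separate exons in general were not without rate differences, since 8 of 278 (2.88%), in 6 regions, passed the study criteria, against 1.41% of the whole table. Limma called 1 of 91 tested (1.1%), against 1.54% of the whole table. That exon was ADAM15 exon C of chr1:153300517-153301468, with a difference of −0.147 from summed reads. Over all 5617 pairs, the share of the first exon differed between the groups at p of at most 0.05 by Fisher's exact test in 585 (10.4%), and the median shift was 1.48 percentage points. For separate exons 36 of 220 pairs passed (16.4%), with a median shift of 4.86 points. Joined exons passed in 191 of 1085 pairs (17.6%), overlapping in 65 of 964 (6.74%) and single in 86 of 1419 (6.06%). These tests pool the samples, are unadjusted and do not see the spread between samples, and the intervals cover counting error only. Overlapping forms can share a junction, and whether its reads count in both rows is not given. In PKM (chr15:70279868-70286274) the mean rate of exon A was 0.998 in both groups and that of exon B 0.988 and 0.984. Exon A of PKM had 18953 including reads in control and 27193 in RBM47 cells, and exon B 3998 and 3882. The share of A was 82.6% (82.1% to 83.1%) and then 87.5% (87.1% to 87.9%) (Fisher's exact test, p 2.87e-57), a shift that the rates, with 14 skipping reads in either group, do not show. FYN, a Src-family kinase, moved from 59.3% (56.9% to 61.7%) to 71.8% (69.4% to 74%) (Fisher's exact test, p 6.1e-13). P4HA1, a subunit of collagen prolyl hydroxylase, moved from 72% (69.1% to 74.7%) to 81.7% (78.8% to 84.3%) (Fisher's exact test, p 3.24e-06). H2AFY, the histone variant macroH2A, moved the other way for exon A against B, from 81.8% (80.8% to 82.8%) to 77.3% (76.3% to 78.3%) (Fisher's exact test, p 3.45e-10). DGKA, a diacylglycerol kinase named after its values were seen, moved from 42% (36.3% to 47.9%) to 60.5% (54.7% to 66%) (Fisher's exact test, p 1.53e-05). In these regions the rates themselves differed between the groups by at most 0.0129 in size. Another PKM region, chr15:70298338-70310584, has a single annotated exon. Its exon B had rates of 0.864, 0.861 and 0.845 in control and 0.429, 0.818 and 0.82 in RBM47 cells. This difference of −0.167 was not called.

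**Figure D5:**
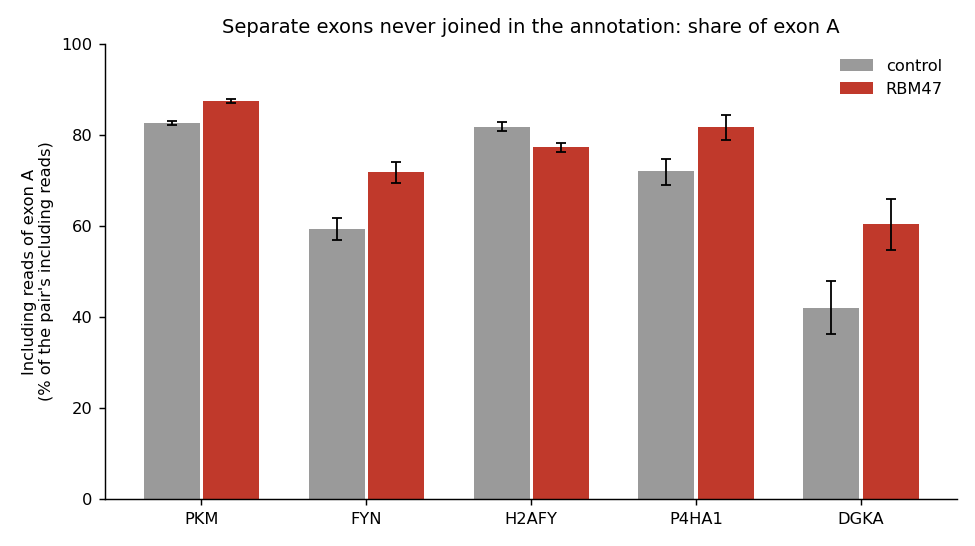
Bars give the share of exon A among the including reads of exons A and B, in percent, for control (grey) and RBM47 (red) cells, with 95% Wilson intervals that cover counting error in the summed reads. The share is higher in RBM47 cells in PKM, FYN, P4HA1 and DGKA and lower in H2AFY, and the largest shift is in DGKA, from 42% to 60.5%.

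Gene lists were counted over their member exons, without a test of the list. Of 46 exons in 16 genes with textbook competing exons, 1 passed the study criteria, TPM1 exon B (2.17%, against 1.35% of all members). TPM1, a tropomyosin on actin filaments, went from 0.435 ± 0.134 to 0.23 ± 0.149 in this exon (SD, n = 3, difference −0.205, or −0.311 from summed reads), with overlapping groups and a limma adjusted p of 0.576. Of 77 exons of cytoskeleton and adhesion genes, 6 were called lower and 0 higher (7.79%), in EPB41, MYL6, NF2 and TPM1, and limma called 3 exons of the list, all lower. Septins stand under date-like symbols and were therefore not counted in this list. SEPTIN6 exons A and B, called by both methods, were higher by 0.34 and 0.436. For membrane traffic the study criteria called 4 of 227, all SEC31A and all higher. Kinases and phosphatases had 2 higher and 3 lower of 148 (CDKN2AIPNL, PPP1R12A and PPP6R2), where CDKN2AIPNL is in the list by its prefix and is not a kinase. The ubiquitin and p53 network had 2 lower of 90, both MDM4. Limma called 0 exons of these 2 lists and 0 of the textbook list, with 5, 0 and 2 at an unadjusted p under 0.05. RNA-binding proteins and splicing factors had 0 of 110 by the study criteria and 0 of 26 by limma, with 1 at an unadjusted p under 0.05, and 2 of their 71 pairs moved together. The median difference lay between −0.00541 and 0.000628 in all 6 lists.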

How the data were processed

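RNA was sequenced from 3 control and 3 RBM47 samples of MDA231-BrM2a cells, and per the labels 10 ng/ml doxycycline was given for 3 days. The authors deposited 1 table with the inclusion rate of each event per sample as a fraction, the average of each group as a fraction, and including and skipping junction read counts summed over each group. Its columns of differences, odds ratios and Fisher p-values hold the authors' own comparisons and were not used. The submitters' processing notes name TopHat without a version, and the aligner options, the genome build of the table and the formula of the rate are not given in the sources used here. Counts per sample are not in the table, so no count model was run, and the depth per sample is unknown.

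Exact repeat rows (77 of 24725) were dropped. In 1392 rows the sample rates did not average to the printed averages. Of these, 1122 were re-matched by both averages, 253 by the RBM47 average alone (tolerance 3e-09) and 17 not at all. For the 253 the control rates come from the matched row, and their r with the rate from the control reads was 0.968. Over the 79 members among them the control rate lay a median 0.0337 from the rate of the control reads, against 0.264 for the printed control average.

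Fisher's exact test (scipy 1.17.1) was run on the 4 read totals of each event. Limma 3.58.1 (R 4.3.3) was fitted to rates transformed by the arcsine of their square root, its prior variance following log2 reads, over events with a mean rate of 0.1 to 0.9, with Benjamini-Hochberg adjustment over the whole table. The same test was run on the difference between the exons of a pair. The fits were tested on simulated data. A pair was classed when both exons differed by at least 0.05. Outer ends were matched to GENCODE exons by gene and span, where at least 3 genes shared the shift between the coordinates. Class single, joined, overlapping or separate describes all annotated exons between the ends. Shares have 95% Wilson intervals.

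The exons named are those of groups with 2 or more limma calls, of pairs with both exons past the study criteria (up to 12 by reads), of the 10 opposite pairs with 30 or more reads and the largest gap, of 5 pairs with only 1 exon past the criteria, of the 3 regions with the most rows, of the textbook list, and of SEC31A and MDM4. KHK, RGS3, DGKA and the neighbouring ADAM15 regions were named after their values were seen. The members and lists were chosen with earlier results of these data known. Alternatives were other thresholds, transformations, read minimums and matchings, a replicate block, and leaving out each sample. A pair that the rule for named exons covers is not reported here.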

Additional observations from a re-analysis of the deposited data

How the results depend on the processing

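Counts moved with the threshold and the row matching, and no called exon changed sign under the alternatives run on it. Among uncalled pairs, the ANKRD10 gap of exons A and D went from −0.364 to 0.046 and the difference of its exon D from 0.218 to −0.056 with rates from summed reads, where 11 of the 30 opposite pairs kept differences of at least 0.05 and 21 kept unlike signs. Members past the study criteria (53 higher, 62 lower) were 34 and 29 with adjusted Fisher p-values, 144 and 184 at a required difference of 0.1, 20 and 28 at 0.3, and 9 and 18 among rows aligned as deposited. With the averages printed by the authors 35 were higher. Leaving out 1 sample at a time gave 45 to 60 higher and 60 to 73 lower. Limma calls (22 higher, 14 lower) were 13 and 9 with log2 odds and 0.01 added, 8 and 8 over all mean rates, 1 and 0 among rows aligned as deposited, and 10 higher without the variance trend. They were 9 to 15 higher and 6 to 11 lower without 1 sample at a time.

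Pairs moving together (744) and opposite (30) were 1675 and 120 with each exon differing by at least 0.02, 275 and 5 at 0.1, 59 and 0 at 0.2, 4255 and 685 with any difference, and 488 and 14 with at most 1 pair per group. Equal outer ends alone gave 66 opposite pairs, and unequal skipping totals 36 together. Without 1 sample at a time they were 764 to 875 together and 30 to 39 opposite. The pair difference was called by limma in 1 pair, in 2 untransformed, 2 without the trend, 5 over all mean rates, 0 among rows aligned as deposited, and 0 to 3 without 1 sample at a time.

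Deviations of same-numbered control and RBM47 samples from their group means had correlations of −0.0220, −0.0034 and 0.0142. The rates thus showed no pairing by number. Such values cannot tell whether same-numbered samples were handled together, which the labels do not say. With the replicate number as a block, limma called 15 members higher and 11 lower and 0 pair differences, and 23 of the 36 called members kept the call. Counts stayed within 1.5 times under, among others, the read minimum, unequal including totals and rates from summed reads. The cause of the moves was not tested. Rates near 0 or 1 and low skipping reads limit the precision, and 2 samples of a group remain when 1 is left out.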

Other observations

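Some member exons passed limma alone in their region and are named here after their values were seen. MYL6, an essential light chain of myosin, had rates of 0.353, 0.335 and 0.327 in control and 0.1, 0.0889 and 0.107 in RBM47 cells in exon A of chr12:54840293-54841624 (limma adjusted p 0.000252). The groups were well apart, with 8938 including and 8399 skipping reads in control against 3133 and 13482 in RBM47 cells. REPS1, a partner of endocytic proteins, had 0.78, 0.765 and 0.802 and then 0.336, 0.432 and 0.484 in exon A of chr6:139283866-139292927 (limma adjusted p 0.0044). Its exon B, lower by the study criteria, had a limma adjusted p of 0.0539. Exon A of MYL6 and exon A of REPS1 kept the limma call in each of the 6 settings that leave out 1 sample.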
